A study of Homo sapiens with 24 samples.

Results

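The genes described here are 9 mitochondrial antioxidant enzymes and their reducing partners: PRDX3, PRDX5, TXN2, TXNRD2, GLRX2, GLRX5, GPX4, NNT and PON2. They were taken by name from a table of 24053 gene identifiers, and all 9 were found and passed the minimum level for testing, as did 13810 genes in all. Messages were sequenced from ARPE-19, an established human line of retinal pigment epithelium cells. The groups were scramble siRNA (the control), Pink1 siRNA, Nrf2 siRNA and both siRNAs together (Nrf2-Pink1, called the double siRNA below), with 3 biological samples each and 2 technical replicates per sample, 24 deposited samples in all. Some labels say knockout or KD where the series design says siRNA, and siRNA is used here. No dose or time after transfection is used here, and the protocols mention a scratch wound without saying whether the cells taken for RNA were wounded. All groups are from the same cell line, and no source used here says whether the biological replicates were separate cultures, so the p-values measure the spread between these samples.

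Mitochondria release superoxide and hydrogen peroxide as a by-product of respiration, and the retinal pigment epithelium is a tissue with high respiratory and oxidative load. Peroxide is removed by peroxiredoxins, which are reduced by thioredoxin and then by thioredoxin reductase, and by glutathione-dependent enzymes such as GPX4. Both routes draw on NADPH, which NNT supplies at the inner membrane. PINK1 is a kinase that marks damaged mitochondria for removal, and NRF2, encoded by NFE2L2, is a transcription factor that drives many antioxidant genes.

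PON2 was the 1 gene of the 9 that was called in any comparison. Its message fell to 48.8% of the scramble mean with Pink1 siRNA and to 51.7% with the double siRNA, whereas with Nrf2 siRNA it stood at 84.0% and did not pass the test. The peroxiredoxins, thioredoxin system, glutaredoxins, GPX4 and NNT were not called. With Nrf2 siRNA, 8 of the 9 estimates lay below 0, with GLRX2 and NNT lowest, and none passed after adjustment. The share of all genes below 0 was not counted, but the median log2 difference was -0.21 for the 9 and 0.02 over all genes tested. Of the 8, PRDX5 (-0.02) and TXNRD2 (-0.08) changed sign under some other settings.

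Values are TPM (transcripts scaled to a fixed total), corrected for the length of each gene, so levels of different genes can be set side by side. The TPM of technical replicates was averaged. Differences are between group means of log2(TPM + 1), estimated with limma over all 12 biological samples, and a gene is called where p, adjusted by Benjamini-Hochberg over the 13810 genes, is under 0.05. TPM keeps no read number, so the depth of the samples is unknown. A lower value in such bulk samples does not tell fewer expressing cells from less RNA per cell.

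Both siRNAs lowered the message of their target: PINK1 was at 26.2% of the scramble mean with Pink1 siRNA and 33.5% with the double siRNA, and NFE2L2 at 24.8% with Nrf2 siRNA and 35.8% with the double siRNA. The epithelial keratin gene KRT8 had group means from 775 to 940 TPM, and the pigment epithelium regulators OTX2 and MITF were present in every group. Of the 10 pigment epithelium markers listed, 9 averaged at least 1 TPM over the 12 samples. The exception was RPE65, which defines mature pigment epithelium and reached at most 0.360 TPM. With scramble, RLBP1 (0.725 TPM) and SERPINF1 (0.0 TPM) also had means below 1 TPM, so the list was met only in part. TYRP1 had means of 9.9 TPM with scramble, 45.5 with Pink1, 23.2 with Nrf2 and 26.6 with the double siRNA. The part of these markers in the results was not tested. Of other cell types, PTPRC (leukocytes), VWF (endothelium) and RBFOX3 (neurons) stayed at or below 0.675 TPM, while CD68, a macrophage and lysosome gene, reached 105 TPM. Of the fibroblast markers, PDGFRB ran from 33.9 to 62.3 TPM over the samples, and COL1A1 had means of 1.59 TPM with scramble, 3.38 with Pink1, 4.35 with Nrf2 and 6.45 with the double siRNA. One unnamed identifier, ENSG00000226958, held a large share of the TPM total: 41.4% in replicate 1 of the double siRNA, 15.5% in its replicate 3 and 24.85% to 38.6% elsewhere. Since TPM shares out a fixed total, this share bears on the level of every other gene.

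In scramble cells the members fell into tiers by TPM. PRDX5, at 264.0 ± 0.835 TPM (SD, n = 3), GPX4, at 243 ± 59.1 TPM, and PRDX3, at 210.2 ± 14.7 TPM, lay above all the rest; the range of GPX4 took in those of both peroxiredoxins, which did not overlap each other. TXN2 (58.1 ± 7.03 TPM) and PON2 (55.4 ± 2.72 TPM) overlapped each other and came next. NNT (44.6 ± 4.37 TPM) and GLRX5 (36.7 ± 6.64 TPM) also overlapped, and TXNRD2 (18.2 ± 2.62 TPM) and GLRX2 (17.3 ± 3.49 TPM) were lowest. The summed level of the 9 genes ran from 754 to 1152 TPM over the 12 samples, and PRDX3, PRDX5 and GPX4 made up 74.9% to 80.4% of it. The lowest sum was in Nrf2 siRNA replicate 2, where ENSG00000226958 held 38.6% of TPM. The highest was in double-siRNA replicate 3, where it held 15.5%. The part of that share in the range of the sums was not tested. PON2 had rank 5 of 9 with scramble and with Nrf2 siRNA, and rank 7 with Pink1 siRNA and with the double siRNA. Rank 7 was not set apart. The range of PON2 overlapped with those of GLRX5 and TXNRD2 in both groups, and with that of NNT under the double siRNA.

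**Figure D1:**
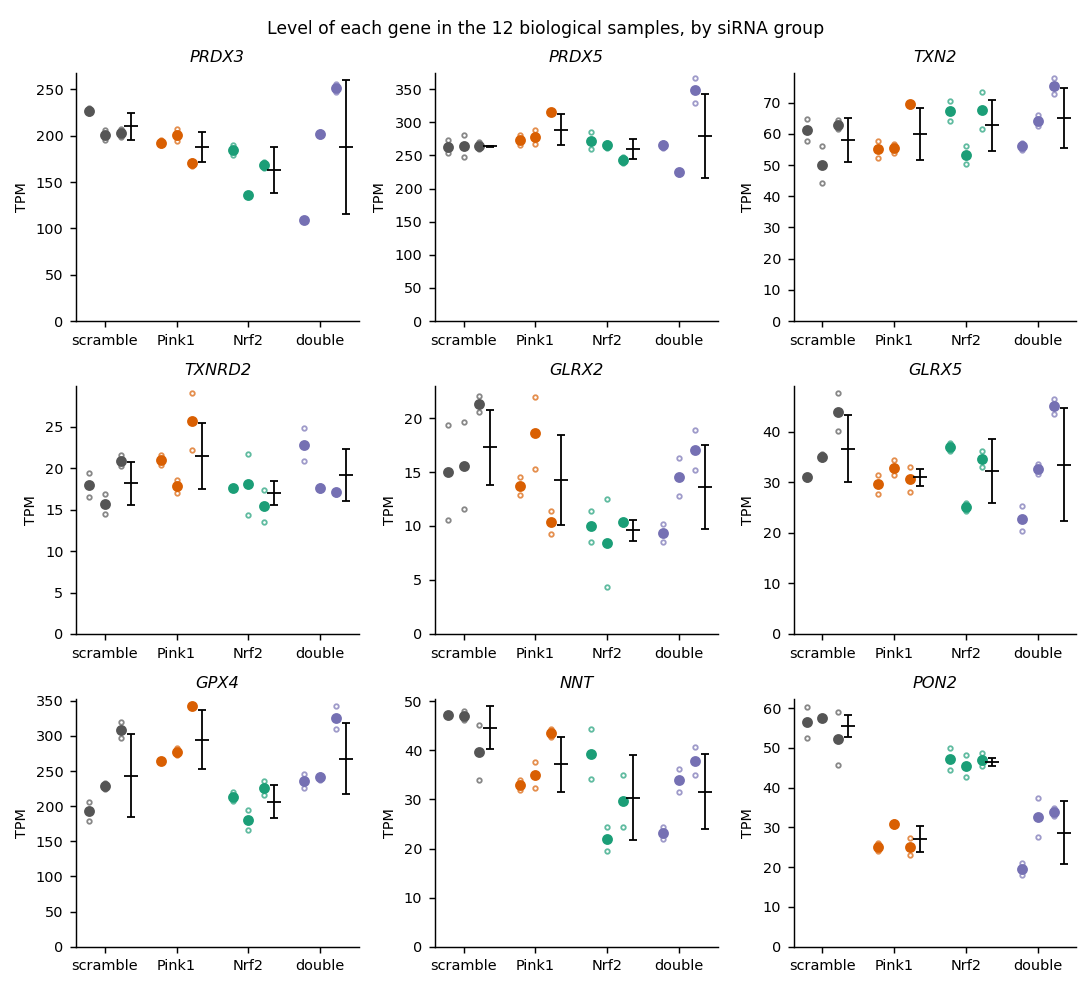
TPM of each of the 9 genes (vertical axis, linear from 0) in the 4 siRNA groups; large points are biological samples, small open points their technical replicates, and the bar is the mean ± SD of 3 samples. PON2 is the gene in which all Pink1 siRNA and double-siRNA samples, at 19.6 to 33.9 TPM, lie below all scramble and Nrf2 siRNA samples, at 45.4 to 57.5 TPM.

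PON2 (ENSG00000105854) encodes a membrane-bound lactonase of the paraoxonase family, found at the inner mitochondrial membrane and the endoplasmic reticulum, where it limits superoxide release. It stood at 56.4, 57.5 and 52.3 TPM in scramble replicates 1 to 3, and at 25.1, 30.8 and 25.2 TPM in those of Pink1 siRNA. With Nrf2 siRNA it was at 47.2, 45.4 and 47.0 TPM, and with the double siRNA at 19.6, 32.5 and 33.9 TPM. All 6 samples given Pink1 siRNA, alone or in the double, lay below all 6 samples without it, as in 1.25% of all genes in either direction, and the Nrf2 siRNA samples lay just below those of scramble without overlap. The double-siRNA samples overlapped with those of Pink1 siRNA and spread most.

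PON2 fell by 1.01 on the log2 scale with Pink1 siRNA (SE 0.185, 95% interval -1.41 to -0.61, limma adjusted p = 0.0316). It fell by 0.97 with the double siRNA (SE 0.185, interval -1.37 to -0.57, limma adjusted p = 0.0307). PON2 was the 1 member called in each of these comparisons, where 0.471% and 0.753% of all genes tested were called, and 0.116% and 0.282% were called lower. With Nrf2 siRNA the PON2 difference was -0.25 (interval -0.65 to 0.15, adjusted p = 0.652). The levels of PON2 with Pink1 siRNA and with Nrf2 siRNA did not overlap, as in 18.8% of all genes, but the difference of -0.77 was not called (interval -1.17 to -0.37, adjusted p = 0.0771), nor was that of -0.72 between the double and Nrf2 siRNA (adjusted p = 0.361). The PON2 difference between Pink1 and Nrf2 siRNA was called in 5 of 24 alternatives: median-of-ratios rescaling (adjusted p = 0.014), quantile normalization (0.0149), ENSG00000226958 removed (0.0139) and without double-siRNA replicate 1 or 3 (0.00869 and 0.0476). Between the double and Pink1 siRNA it was 0.05 (interval -0.35 to 0.45, adjusted p = 1).

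The 4 groups form a crossed design, so the effect of Pink1 siRNA can also be averaged over the presence and absence of Nrf2 siRNA, a comparison of 6 samples with 6 that was added after the data were seen and uses the same fit. PON2 was lower by this measure, with a log2 difference of -0.87 (SE 0.131, interval -1.15 to -0.58, limma adjusted p = 0.012), where 0.652% of genes tested were called and 0.326% called lower. The same average for Nrf2 siRNA gave -0.10 (interval -0.38 to 0.18, adjusted p = 0.852), where 0.731% of genes were called. The interaction, which asks whether the effect of the 2 siRNAs together departs from the sum of each alone, was 0.29 for PON2 (interval -0.27 to 0.86, adjusted p = 0.913), and the limma test called 0.0% of all genes for it.

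PON2 was lower than with scramble in every alternative tried for Pink1 siRNA and the double siRNA, but its call was not kept in all of them, as the plot of PON2 under each setting shows. With Pink1 siRNA, PON2 was called in 13 of 24 alternatives, and with the double siRNA in 14 of 24. The Pink1 siRNA call ended without scramble replicate 1, 2 or 3 (adjusted p = 0.115, 0.148 and 0.0984), without Pink1 siRNA replicate 1, 2 or 3 (0.0934, 0.0884 and 0.142) and without Nrf2 siRNA replicate 3 (0.0597). The double-siRNA call ended without scramble replicate 1, 2 or 3 (adjusted p = 0.108, 0.141 and 0.0974), without Pink1 siRNA replicate 2 (0.0538) and without Nrf2 siRNA replicate 3 (0.0587). Double-siRNA replicate 1 held the lowest PON2 level, and without it the double-siRNA difference was -0.72 (adjusted p = 0.0178). The averaged effect of Pink1 siRNA was called in 23 of 23 alternatives, with adjusted p from 0.00106 to 0.0453.

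**Figure D2:**
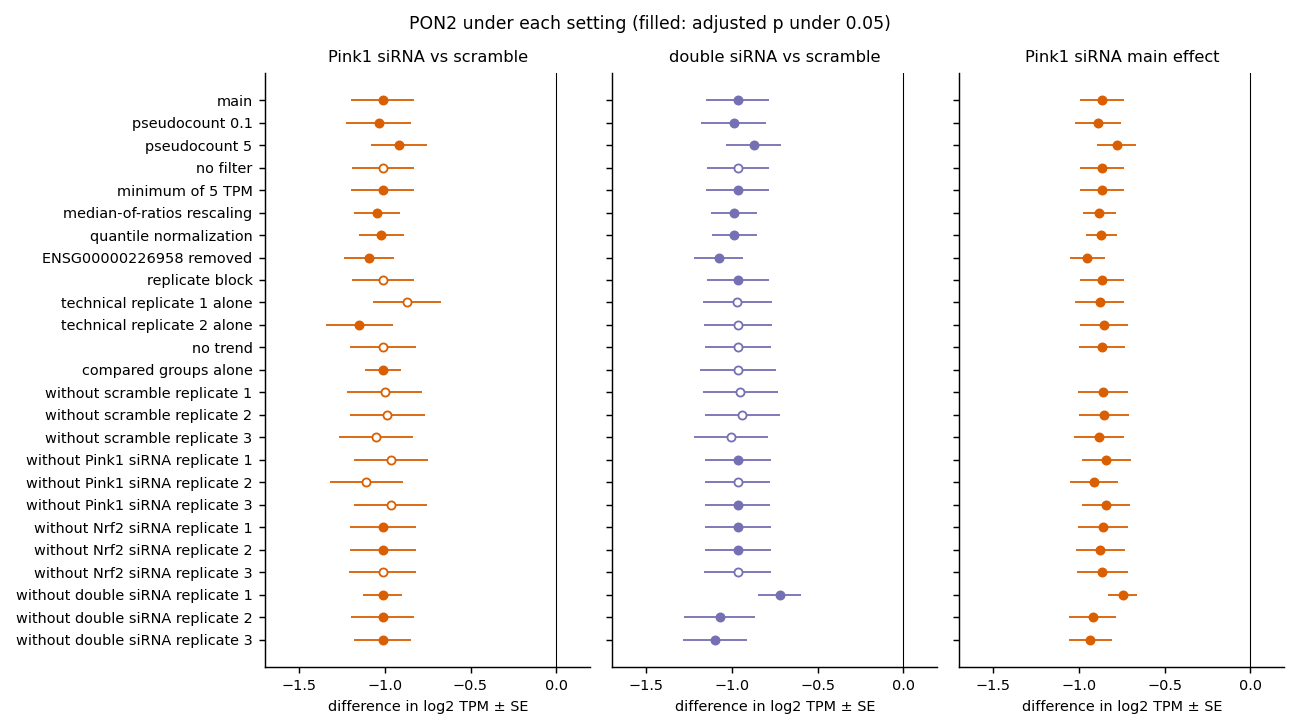
Log2 difference of PON2 (horizontal axis, ± SE) under the settings used for the report and each alternative, for Pink1 siRNA against scramble, the double siRNA against scramble and the averaged effect of Pink1 siRNA. Every point lies below 0; filled points have an adjusted p under 0.05, which holds for all points of the averaged effect and for only some of the others.

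Technical replicates of PON2 differed by an SD of 0.149 on the log2 scale for a single technical value. Biological samples within a group, each an average of 2 technical values, differed by an SD of 0.23. The PON2 differences from scramble of -1.01 and -0.97 are between means of 3 samples, so these are not like measures. With ENSG00000226958 removed and TPM rescaled, PON2 stood at 77.4 to 90.3 TPM with scramble, 33.5 to 45.6 with Pink1 siRNA, 67.3 to 73.9 with Nrf2 siRNA and 33.4 to 46.0 with the double siRNA, so the same groups stayed apart. The summed blood markers, nearly all CD68, were at 25.3 to 30.95 TPM with Pink1 siRNA, within the scramble range of 19.25 to 37.9 TPM. With the double siRNA they were at 34.1 to 52.5 TPM, in part above that range. The summed fibroblast markers were at 39.95 to 46.4 TPM with scramble and 42.7 to 65.4 TPM with Pink1 siRNA. With the double siRNA they were at 43.7 to 61.6 TPM. The part of these markers in the PON2 result was not tested. The genes most like PON2 over the 12 samples, among 9806 with a mean of at least 5 TPM, were THUMPD1, an adaptor in tRNA acetylation (Pearson r = 0.956), PSMA3, a proteasome subunit (r = 0.948), and GALC, a lysosomal galactosylceramidase (r = 0.943). THUMPD1 went from a mean of 18.5 TPM with scramble to 11.02 with Pink1 siRNA, 17.7 with Nrf2 siRNA and 13.2 with the double siRNA. These genes share their libraries and the same fixed TPM total with PON2, and none of them was called against scramble in any siRNA group.

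PRDX3 (ENSG00000165672), the thioredoxin-dependent peroxidase of the mitochondrial matrix, was at 227, 201 and 203 TPM with scramble and at 193, 201 and 170.3 TPM with Pink1 siRNA. With Nrf2 siRNA it was at 185, 136 and 168 TPM, and with the double siRNA at 109, 202 and 252 TPM. The Nrf2 siRNA samples lay below those of scramble without overlap, while the double-siRNA samples ran from the lowest to the highest value of the 12. The PRDX3 difference with Nrf2 siRNA was -0.37 (interval -0.90 to 0.15, limma adjusted p = 0.59). Technical replicates of PRDX3 differed by an SD of only 0.04 on the log2 scale against 0.339 between biological samples, so the spread of the double-siRNA group lay between samples. Its lowest value was in the double-siRNA sample with the highest share of ENSG00000226958, and its highest in the sample with the lowest share; the part of that share in the spread was not tested. With that identifier removed, PRDX3 lay at 300.2 to 347 TPM with scramble and 227 to 298 with Pink1 siRNA. It lay at 221 to 263 TPM with Nrf2 siRNA and 186 to 298 with the double siRNA. No siRNA group then overlapped with scramble, by a narrow gap for Pink1 siRNA and the double siRNA, and none was called. The share of all genes without overlap after this removal was not counted.

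PRDX5 (ENSG00000126432), a peroxiredoxin of mitochondria, peroxisomes and cytosol, was at 263, 264 and 265 TPM with scramble and 273, 278 and 316 TPM with Pink1 siRNA. It was at 272, 265 and 243.5 TPM with Nrf2 siRNA and at 265, 225 and 348 TPM with the double siRNA. PRDX5 with Pink1 siRNA thus lay just above scramble in all 3 samples, with a difference of 0.13 (interval -0.21 to 0.47, limma adjusted p = 0.79) that did not pass. The scramble samples of PRDX5 agreed closely, with an SD of 0.835 TPM, against 62.95 TPM in the double-siRNA group. With ENSG00000226958 removed, PRDX5 with Pink1 siRNA (411 to 423 TPM) overlapped with scramble (392 to 415 TPM).

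GPX4 (ENSG00000167468) is the selenoprotein that reduces lipid hydroperoxides within membranes and guards against ferroptosis, an iron-dependent form of cell death. Its gene also makes cytosolic and nuclear forms, which gene-level TPM does not separate. GPX4 was at 193, 228.5 and 308 TPM with scramble, 264, 277.5 and 342 TPM with Pink1 siRNA, 213, 180.5 and 226 TPM with Nrf2 siRNA and 236, 241 and 326 TPM with the double siRNA. Every group overlapped with scramble, whose own samples spread widely, but all Pink1 siRNA samples and all double-siRNA samples lay above all Nrf2 siRNA samples (18.8% and 9.49% of all genes did not overlap in these pairs of groups). Pink1 siRNA exceeded Nrf2 siRNA by 0.51 for GPX4 (interval 0.08 to 0.93, limma adjusted p = 0.324), which did not pass. Averaged over the crossed design, GPX4 with Pink1 siRNA differed by 0.33 (interval 0.03 to 0.63, adjusted p = 0.32).

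TXN2 (ENSG00000100348), the mitochondrial thioredoxin that reduces PRDX3, had group means from 58.1 TPM with scramble to 65.2 TPM with the double siRNA. Its 12 samples ran from 50.1 to 75.3 TPM, and every siRNA group overlapped with scramble. Its differences from scramble were 0.04 with Pink1 siRNA, 0.11 with Nrf2 siRNA and 0.16 with the double siRNA, the last with an interval of -0.20 to 0.52. TXNRD2 (ENSG00000184470), the selenoprotein reductase that regenerates TXN2, was at 18.0, 15.7 and 20.9 TPM with scramble and 21.0, 17.8 and 25.7 TPM with Pink1 siRNA. It was at 17.6, 18.1 and 15.4 TPM with Nrf2 siRNA and 22.8, 17.6 and 17.1 TPM with the double siRNA, and all groups overlapped with scramble. The TXNRD2 difference was 0.22 with Pink1 siRNA (interval -0.15 to 0.60, limma adjusted p = 0.637) and -0.08 with Nrf2 siRNA (interval -0.46 to 0.29, adjusted p = 0.899).

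GLRX2 (ENSG00000023572) is a glutaredoxin that binds an iron-sulphur cluster and removes glutathione from protein thiols. It was at 15.0, 15.6 and 21.3 TPM with scramble, 13.7, 18.6 and 10.35 TPM with Pink1 siRNA, 9.975, 8.46 and 10.35 TPM with Nrf2 siRNA and 9.365, 14.5 and 17.0 TPM with the double siRNA. All Nrf2 siRNA samples of GLRX2 lay below all scramble samples, and the other groups overlapped with scramble. The Nrf2 siRNA difference of -0.78 had an interval of -1.29 to -0.26 and an unadjusted p = 0.0062, but limma gave an adjusted p = 0.199. GLRX2 was also the member least repeatable between technical replicates, with an SD of 0.393 on the log2 scale for a single technical value. The SD between biological samples was 0.322, but for averages of 2 technical values, so these SDs are not like measures. In Nrf2 siRNA replicate 2 the technical values were 4.38 and 12.5 TPM. The GLRX2 difference with Nrf2 siRNA was -1.197 from technical replicate 1 alone and -0.392 from technical replicate 2 alone, the ends of its range over the alternatives, and it was not called in any of them (adjusted p from 0.083 to 0.696). With ENSG00000226958 removed, the double-siRNA samples of GLRX2 (15.97 to 20.5 TPM) no longer overlapped with scramble (22.9 to 31.5 TPM). How many of all genes did the same was not counted. RO60, which overlaps GLRX2 on the opposite strand, had means of 52.6 to 56.7 TPM in the 4 groups; whether the counting used strand is not stated.

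GLRX5 (ENSG00000182512), which hands iron-sulphur clusters on to target proteins, was at 31.0, 35.1 and 44.0 TPM with scramble and 29.7, 32.95 and 30.6 TPM with Pink1 siRNA. It was at 37.1, 25.1 and 34.6 TPM with Nrf2 siRNA and 22.8, 32.7 and 45.1 TPM with the double siRNA, overlapping with scramble in every group. The GLRX5 differences were -0.22, -0.18 and -0.16 in that order, with limma adjusted p of 0.736 or more. SCARNA13, a small RNA gene that overlaps GLRX5 on the opposite strand, was called lower with Pink1 siRNA, from a mean of 6.88 to 1.02 TPM (adjusted p = 0.0228). Its call ended without scramble replicate 1, 2 or 3 (adjusted p = 0.0841, 0.0599 and 0.0984), without Pink1 siRNA replicate 3 (0.0538), with technical replicate 1 alone (0.371), a pseudocount of 0.1 (0.0876), no filter (0.056) and the compared groups alone (0.0874).

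NNT (ENSG00000112992), the inner-membrane transhydrogenase that makes NADPH from NADH, was at 47.2, 47.0 and 39.6 TPM with scramble and 32.9, 34.95 and 43.5 TPM with Pink1 siRNA. It was at 39.3, 22.02 and 29.7 TPM with Nrf2 siRNA and 23.2, 33.9 and 37.75 TPM with the double siRNA. NNT lay below scramble without overlap in the Nrf2 siRNA group, where the nearest samples were 39.3 and 39.6 TPM, and in the double-siRNA group. The NNT difference was -0.57 with Nrf2 siRNA (interval -1.05 to -0.10, limma adjusted p = 0.3) and -0.51 with the double siRNA (interval -0.99 to -0.03, adjusted p = 0.321). Averaged over the crossed design, the Nrf2 siRNA difference of NNT was -0.41 (interval -0.75 to -0.07, adjusted p = 0.317). With ENSG00000226958 removed, the Pink1 siRNA samples of NNT (50.98 to 57.9 TPM) also lay below those of scramble (58.5 to 73.9 TPM). How many of all genes did the same was not counted. None of these NNT differences passed. NNT-AS1, the antisense gene at the same locus, stood at means of 4.87 to 6.16 TPM and was not called.

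**Figure D3:**
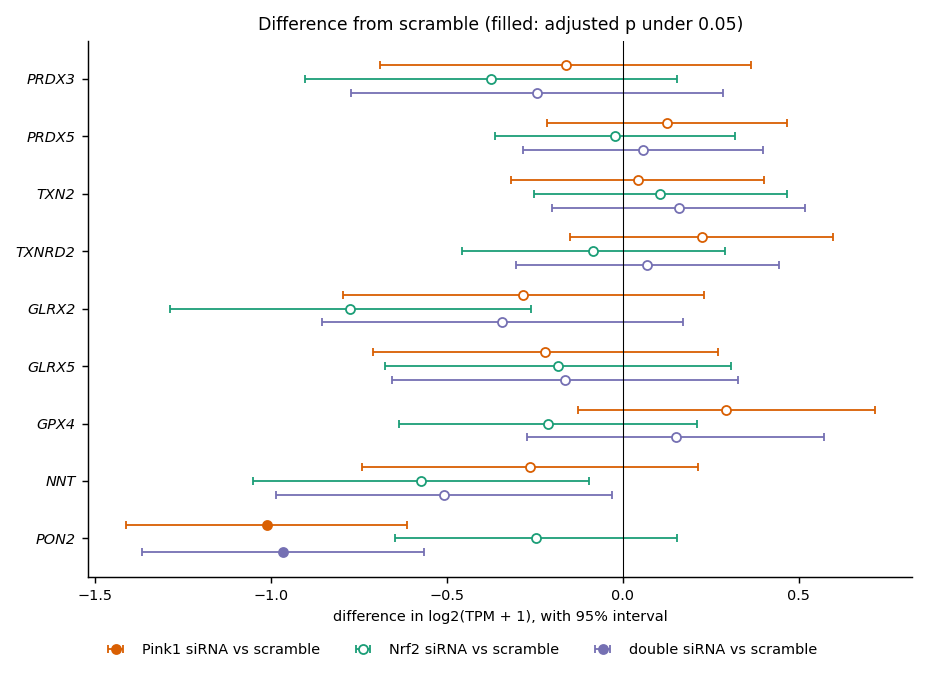
Difference from scramble in log2(TPM + 1) for each gene (points) with its 95% interval (bars), by siRNA group; filled points are called at an adjusted p under 0.05. The filled points are PON2 with Pink1 siRNA (-1.01) and with the double siRNA (-0.97); with Nrf2 siRNA the interval also lies below 0 for GLRX2 and NNT, and with the double siRNA for NNT, none of which was called.

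Counted over the 9 genes, Pink1 siRNA lay below scramble in 5 estimates and above in 4, with groups that did not overlap for 2 genes, PON2 and PRDX5, where 25.0% of all genes tested did not overlap. With Nrf2 siRNA, limma called 0 of 9 where 0.333% of all genes were called; 2 of 9 had an unadjusted p under 0.05, against 12.2% of all genes. Groups did not overlap for 4 genes, PRDX3, GLRX2, NNT and PON2, all lower, where 22.9% of all genes did not overlap and 9.26% did so lower. With the double siRNA the groups of NNT and PON2 did not overlap, beside 18.1% of all genes. These counts are for TPM as deposited. With ENSG00000226958 removed, PRDX3 and NNT took the place of PRDX5 beside PON2 for Pink1 siRNA. For the double siRNA, PRDX3 and GLRX2 joined NNT and PON2, while the 4 genes stayed the same for Nrf2 siRNA. The share of all genes was not counted after this removal, so these changes are not read as particular to the 9. The removal also moved the median log2 difference over all genes tested. It became -0.036 with Pink1 siRNA, 0.002 with Nrf2 siRNA and -0.079 with the double siRNA. For TPM as deposited, the median log2 difference of the 9 was -0.16 with Pink1 siRNA, -0.21 with Nrf2 siRNA and -0.16 with the double siRNA. The medians over all genes tested were then 0.02, 0.02 and 0.01. These comparisons share the scramble samples and so are not independent of each other. Limma called 0 of 9 in each of 4 further comparisons: the double against Pink1 siRNA (0.0434% of all genes called), the double against Nrf2 siRNA (0.0145%), Pink1 against Nrf2 siRNA (0.992%) and the interaction. In that order, 0, 1, 2 and 0 of the 9 had an unadjusted p under 0.05, against 5.8%, 6.95%, 11.2% and 5.45% of all genes.

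A test that misses the threshold does not show that a gene was level, and the intervals give what the data allow. For the 8 members other than PON2, the 24 intervals against scramble reached 0.341 to 0.528 to either side of the estimate on the log2 scale. Of these, 22 lay wholly between -1 and 1. The lowest bound was -1.29, for GLRX2 with Nrf2 siRNA, and the highest was 0.72, for GPX4 with Pink1 siRNA.

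The wider network around these enzymes was followed in lists of related genes. Of 29 other mitochondrial redox genes tested, 1 fell with Nrf2 siRNA, and limma called 0 with Pink1 siRNA or the double siRNA. With Pink1, Nrf2 and the double siRNA, 5, 5 and 8 of the 29 had an unadjusted p under 0.05. Over all genes tested, limma called 0.471% with Pink1 siRNA, 0.333% with Nrf2 siRNA and 0.753% with the double siRNA. In that order, 12.2%, 12.2% and 14.2% of all genes had an unadjusted p under 0.05. The counts of this and the following lists read against these shares. The list medians were 0.07, -0.03 and 0.01 with Pink1, Nrf2 and the double siRNA. The gene that fell was IDH2, the mitochondrial isocitrate dehydrogenase, which like NNT supplies NADPH. IDH2 went from 49.9 ± 3.70 TPM with scramble to 23.6 ± 4.37 TPM with Nrf2 siRNA (SD, n = 3 each), with samples of 45.6 to 52.5 and 18.8 to 27.3 TPM. Its log2 difference was -1.06 (SE 0.164, limma adjusted p = 0.0226), and its level was 32.8 ± 0.305 TPM under the double siRNA (adjusted p = 0.127) and 61.8 ± 10.7 TPM under Pink1 siRNA (adjusted p = 0.508). The call of IDH2 ended without scramble replicate 1, 2 or 3 (adjusted p = 0.102, 0.079 and 0.0912) and without Nrf2 siRNA replicate 2 or 3 (0.102 and 0.0532), with technical replicate 1 alone (0.0506), without the trend (0.051) and with the compared groups alone (0.0736). With ENSG00000226958 removed, IDH2 was also called lower with the double siRNA (-0.695, limma adjusted p = 0.0366). Its double-siRNA samples then ran from 38.6 to 56.5 TPM, so the SD of 0.305 TPM holds only for TPM as deposited. SOD2, the superoxide dismutase of the mitochondrial matrix, is named outside the rule for named genes. It was at 26.7 ± 3.90 TPM with scramble, 22.4 ± 2.47 with Pink1 siRNA, 26.1 ± 1.92 with Nrf2 siRNA and 23.8 ± 6.005 with the double siRNA, and it was not called.

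Among 11 tested paralogues that act outside mitochondria, 1 fell with Nrf2 siRNA: TXNRD1, the cytosolic thioredoxin reductase and counterpart of TXNRD2. Limma called 0 of the 11 with Pink1 siRNA or the double siRNA. With Pink1, Nrf2 and the double siRNA, 1, 1 and 2 of the 11 had an unadjusted p under 0.05. TXNRD1 went from 514 ± 16.2 TPM with scramble to 279 ± 31.1 TPM with Nrf2 siRNA (log2 difference -0.88, SE 0.141, limma adjusted p = 0.0236). It stood at 541 ± 38.3 TPM with Pink1 siRNA and 346 ± 41.5 TPM under the double siRNA (adjusted p = 0.0868). With the double siRNA TXNRD1 was called lower after median-of-ratios rescaling (-0.592, adjusted p = 0.00971), quantile normalization (-0.725, 0.00539) and removal of ENSG00000226958 (-0.678, 0.00777). TXNRD1 was no longer called without scramble replicate 1, 2 or 3 (adjusted p = 0.105, 0.119 and 0.0912) or Nrf2 siRNA replicate 2 or 3 (0.119 and 0.11), without the trend (0.051) or with the compared groups alone (0.0628). The difference between the responses of TXNRD1 and TXNRD2 was not tested; their Nrf2 siRNA intervals were -1.19 to -0.58 and -0.46 to 0.29. Of 10 genes listed as a check of NRF2 targets, NQO1 and TXNRD1 fell with Nrf2 siRNA, and NQO1 with the double siRNA. NQO1, a quinone reductase, went from 160.5 ± 6.67 TPM to 44.5 ± 4.79 and 60.3 ± 13.0 TPM, and with the compared groups alone its double-siRNA difference of -1.419 was not called (adjusted p = 0.121). The median log2 difference of those 10 genes was -0.45 with Nrf2 siRNA and -0.36 with the double siRNA, beside -0.21 and -0.16 for the 9 mitochondrial enzymes. The blood markers moved with this group: their summed level, nearly all CD68, was 19.25 to 37.9 TPM with scramble and 42.3 to 105 TPM with Nrf2 siRNA, while PTPRC stayed at or below 0.445 TPM, and their part in these results was not tested.

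The sequences upstream of 3 of these genes are shown because TXNRD1 fell with Nrf2 siRNA, while TXNRD2, its mitochondrial counterpart, and PON2 were not called there. NRF2 binds antioxidant response elements, whose core is TGACNNNGC. That core was searched on both strands in the 250 bases before each transcript start in RefSeq's GRCh38.p14 annotation, a later build than the one named for the expression table. It was present in 10.9% of all 35116 windows, in both windows of TXNRD1 and in 0 of the 16 windows of the 8 members with an entry. The windows of NQO1 and IDH2, which were also called lower with Nrf2 siRNA, held 0 matches. Each sequence below reads 5′ to 3′ on the strand of its gene and ends at the base before the start, and capitals mark the core.
PON2, chr7:95435029-95435278, minus strand: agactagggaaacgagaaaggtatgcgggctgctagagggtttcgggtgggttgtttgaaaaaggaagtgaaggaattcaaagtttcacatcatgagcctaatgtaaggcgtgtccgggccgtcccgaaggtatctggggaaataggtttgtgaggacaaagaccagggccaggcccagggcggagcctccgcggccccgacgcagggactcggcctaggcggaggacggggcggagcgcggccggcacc
TXNRD2, first start, chr22:19941819-19942068, minus strand: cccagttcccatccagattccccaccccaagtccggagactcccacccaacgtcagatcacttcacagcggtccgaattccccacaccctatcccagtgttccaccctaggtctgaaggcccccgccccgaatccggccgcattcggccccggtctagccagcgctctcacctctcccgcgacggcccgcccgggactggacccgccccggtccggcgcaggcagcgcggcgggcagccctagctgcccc
TXNRD1, first start, chr12:104215529-104215778, plus strand: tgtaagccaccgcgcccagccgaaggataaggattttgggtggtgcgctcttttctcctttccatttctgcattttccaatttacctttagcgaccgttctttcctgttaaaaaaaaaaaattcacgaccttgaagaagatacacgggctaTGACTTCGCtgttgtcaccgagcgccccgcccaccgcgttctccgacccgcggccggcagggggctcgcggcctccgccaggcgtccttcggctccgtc
In TXNRD1 the core began 99 bases before this start. A match is a run of letters and does not show binding, and the lack of one covers only this window.

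Iron-sulphur cluster assembly, which GLRX5 serves, was represented by 17 genes. Of these, 1 fell with the double siRNA and 0 were called by limma with Pink1 siRNA or Nrf2 siRNA alone. With Pink1, Nrf2 and the double siRNA, 2, 2 and 1 of the 17 had an unadjusted p under 0.05. The list medians were -0.10, -0.16 and -0.14 with Pink1, Nrf2 and the double siRNA. BOLA3, a late-acting assembly factor, went from 26.0 ± 2.92 TPM with scramble to 13.9 ± 4.29 TPM with the double siRNA (log2 difference -0.90, SE 0.186, limma adjusted p = 0.0468). It was at 16.95 ± 1.88 TPM with Pink1 siRNA (adjusted p = 0.213) and 23.1 ± 1.61 TPM with Nrf2 siRNA. Averaged over the crossed design, BOLA3 was called lower with Pink1 siRNA (difference -0.66, adjusted p = 0.0422), a call lost in 10 of 12 fits that left out a sample. The double-siRNA call held in only 1 of 12 fits that left out a sample, the one without double-siRNA replicate 3 (adjusted p = 0.0148), with adjusted p from 0.0601 to 0.179 in the others. It also ended with technical replicate 1 alone (-0.622, adjusted p = 0.411) or 2 alone (-1.269, 0.0631), no filter (0.0929), no trend (0.0793), a pseudocount of 5 (0.0509) and the compared groups alone (0.304). Technical replicates of BOLA3 differed by an SD of 0.426 on the log2 scale for a single technical value. Biological samples, each an average of 2 technical values, differed by an SD of 0.229.

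GPX4 and TXNRD2 carry selenocysteine, and limma called 0 of 7 genes for selenoprotein synthesis against scramble, and 0 had an unadjusted p under 0.05. The selenophosphate synthetase genes SEPHS1 and SEPHS2, the most abundant of the list, stood at 41.4 ± 2.575 and 36.85 ± 5.01 TPM with scramble and had differences of -0.17 to 0.15 in the siRNA groups. Of 12 tested genes of ferroptosis and lipid peroxide defence, the setting in which GPX4 acts, limma called 0 against scramble (2, 2 and 1 at an unadjusted p under 0.05 with Pink1, Nrf2 and the double siRNA). The ferritin light chain gene FTL was at 1179 ± 117 TPM with scramble and 2031 ± 241 TPM with Pink1 siRNA, without overlap but also without a call (difference 0.78, adjusted p = 0.148). FTL was called higher with median-of-ratios rescaling (adjusted p = 0.0335), quantile normalization (0.0193) or ENSG00000226958 removed (0.0193), and without double-siRNA replicate 1 or 3 (0.0489 and 0.026). The heavy chain gene FTH1 had a difference of 0.31 with Pink1 siRNA (adjusted p = 0.606).

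**Figure D4:**
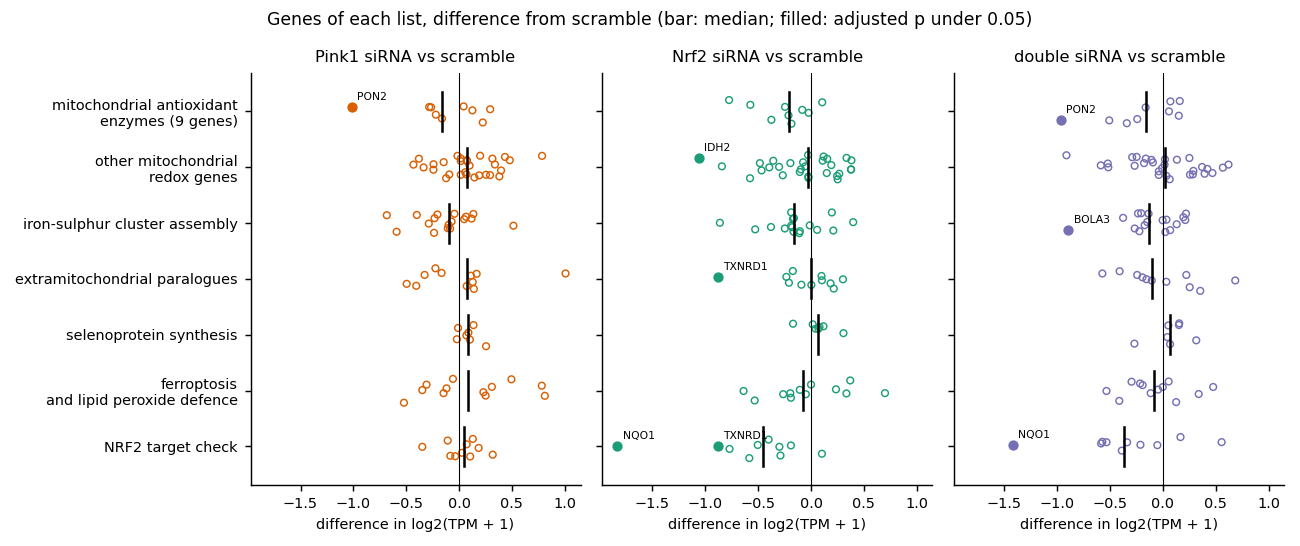
Difference from scramble in log2(TPM + 1) for every tested gene of each list (points), with the list median (vertical bar), in the 3 siRNA groups; filled, named points are called at an adjusted p under 0.05. PON2 is the filled point of the 9 mitochondrial enzymes, and the NRF2 target list has the lowest medians with Nrf2 siRNA (-0.45) and with the double siRNA (-0.36).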

How the data were processed

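Per the labels' protocols, libraries were stranded, made from mRNA and read in pairs. STAR, RSEM and edgeR, and the builds GRCh37 and hg19, are listed in the submitters' processing notes without versions or roles. The authors deposited TPM for 24053 Ensembl identifiers; columns sum to between 999678 and 999945. Names came from a gene name table (19325 identifiers) and from GENCODE release 29 (3612 more). TPM holds no read number, so no interval that needs depth is given.

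Technical replicates were averaged. Genes averaging 1 TPM or more over 12 samples were tested on log2(TPM + 1) with limma 3.58.1 in R 4.3.3 (4 groups in one fit, intensity trend in the prior, two-sided, 8 residual and 4.93 prior degrees of freedom), checked on simulated data. With 3 samples against 3, a permutation test of a single gene cannot go below p = 0.1, so none was run.

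The members and lists were chosen with earlier results of these data known. Named genes are the members and the targeted genes, up to 4 called genes of each list (or its 2 most abundant), the 3 genes most correlated with each called member, and genes overlapping a member. A gene that this rule names is not reported here. Alternatives were other pseudocounts (0.1 and 5), no filter or at least 5 TPM, quantile normalization, median-of-ratios rescaling, removal of ENSG00000226958, the replicate number as a block, either technical replicate alone, no trend, the compared groups alone, and leaving out each sample. The averaged effects of each siRNA were added after the data were seen. GPX7, PON3 and NCOA4 were not analysed here. Promoter windows are RefSeq's.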

Additional observations from a re-analysis of the deposited data

How the results depend on the processing

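No member other than PON2 was called in any comparison under any alternative. TPM without counts sets a limit, since the depth behind each value is unknown, and 3 samples a group leave intervals wide enough to hold moderate changes. PON2 with Pink1 siRNA was not called without the filter on low genes (log2 difference -1.013, adjusted p = 0.059), without the trend (-1.013, adjusted p = 0.0561) or with technical replicate 1 alone (-0.871, adjusted p = 0.112). PON2 with the double siRNA was not called without the filter (-0.966), without the trend (-0.966), with technical replicate 1 (-0.970) or 2 alone (-0.965), or with the compared groups alone (-0.966, adjusted p = 0.265). Leaving out each sample in turn, PON2 ranged from -1.108 to -0.964 with Pink1 siRNA and from -1.102 to -0.722 with the double siRNA. With the compared groups alone, PINK1 with the double siRNA (-1.539) and NFE2L2 with Nrf2 siRNA (-2.033) and the double siRNA (-1.468) were not called, nor was NFE2L2 with the double siRNA from technical replicate 1 alone (-1.480) or in 4 fits that left out a sample (range -1.600 to -1.297).

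The replicate numbers were not taken as pairs, since the labels do not say what a number shares. Between same-numbered samples, 1 of 18 correlations was over 0.1 (-0.085 to 0.113, median 0.002). Between samples of different number, 1 of 36 was over 0.1 (-0.131 to 0.173, median 0.009). Of the 12 samples, 6 correlated best with their own number. These values do not settle whether a number marks a pair. With the replicate block, PON2 (-1.013, adjusted p = 0.0522) and SCARNA13 (-2.073, 0.0522) with Pink1 siRNA were no longer called, and 40 genes were called with Pink1 siRNA, 30 with Nrf2 siRNA and 1 between the double and Pink1 siRNA.

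The number of genes called over the whole table moved with most settings. For Pink1 siRNA against scramble (65 called) it was 40 without the filter, 171 after median-of-ratios rescaling, 215 after quantile normalization, 172 with ENSG00000226958 removed, 40 and 34 from technical replicate 1 or 2 alone, and 22 to 154 when a sample was left out. For Nrf2 siRNA (46 called) rescaling, quantile normalization and removal gave 148, 167 and 131, technical replicate 1 alone 21, no trend 13, the compared groups alone 8, and leave-outs 6 to 122. For the double siRNA (104 called) they gave 335, 295 and 304, no filter 64, technical replicate 2 alone 48, no trend 55, the compared groups alone 6, and leave-outs 19 to 240. Between the double and Pink1 siRNA (6 called) they gave 13, 26 and 22, technical replicate 1 alone 1, the compared groups alone 0 and leave-outs 1 to 16. Between the double and Nrf2 siRNA (2 called), technical replicates 1 and 2 alone gave 1 and 0, the compared groups alone 0 and leave-outs 1 to 4. Between Pink1 and Nrf2 siRNA (137 called) they gave 296, 342 and 311, no filter 79, technical replicate 2 alone 76, the compared groups alone 5 and leave-outs 35 to 255. For the interaction (0 called by limma, with 5.453% of genes at an unadjusted p under 0.05) they gave 2 each, the minimum of 5 TPM gave 3 and leave-outs 0 to 4. Of the genes called, 75.4% were higher with Pink1 siRNA and 62.5% with the double siRNA; with ENSG00000226958 removed this was 51.2% and 42.4%, and with median-of-ratios rescaling 62.6% and 63.3%.

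Some differences near 0 that were not called changed sign. With ENSG00000226958 removed these were TXN2 with Pink1 siRNA (-0.030), PRDX5 (-0.047) and TXNRD2 (-0.029) with the double siRNA, and TXNRD1 with Pink1 siRNA (-0.001). With quantile normalization they were PRDX5 with the double siRNA (-0.093) and TXNRD1 with Pink1 siRNA (-0.014). With technical replicate 1 alone they were PRDX5 (0.027) and TXNRD2 (0.043) with Nrf2 siRNA, PON2 between the double and Pink1 siRNA (-0.099) and its interaction (-0.018); with technical replicate 2 alone SOD2 with Nrf2 siRNA (0.101). Leaving out a sample gave ranges across 0 for TXN2 with Pink1 siRNA (-0.067 to 0.103), with Nrf2 siRNA for PRDX5 (-0.055 to 0.025), TXNRD2 (-0.180 to 0.017), PINK1 (-0.086 to 0.108) and SOD2 (-0.142 to 0.061), and with the double siRNA for PRDX3 (-0.495 to 0.103), PRDX5 (-0.113 to 0.201), TXNRD2 (-0.056 to 0.170), GLRX5 (-0.398 to 0.078), GPX4 (-0.003 to 0.334) and SOD2 (-0.347 to 0.011). The same held for PON2 between the double and Pink1 siRNA (-0.089 to 0.291) and for its averaged Nrf2 siRNA effect (-0.168 to 0.023). The cause of these sign changes was not tested.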
